A study of Acipenser sinensis with 45 samples.

Results

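A set of 150 unigenes, out of 121952 assembled transcripts, was the most abundant in all 3 kinds of gonad of the Chinese sturgeon (Acipenser sinensis) relative to the hypothalamus and pituitary. The deposited FPKM values (fragments per unigene, scaled to its length and to the mapped fragments of the library) were taken as log2(FPKM + 1) and averaged within each of 9 groups. The score of a unigene was the lowest of its 3 gonad group means minus the highest of its 6 hypothalamus and pituitary group means, and the 150 highest scores were kept. These 150 are called gonad unigenes here. A score above 0 was held by 5751 unigenes, or 4.72% of the table.

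Gonads (G), pituitaries (P) and hypothalami (H) of 15 fish from an artificial breeding population were sequenced as 45 RNA libraries. FG, FP and FH came from 3 females in stage II, and MG, MP and MH from 6 males in stage II, all over 4 years old. UG, UP and UH came from 6 fish in stage I that were 1 year old and whose sex cannot be told at that stage. No fish was treated, and sex, stage and age are the labels that separate the groups. UG may therefore hold gonads of both sexes, and stage cannot be told apart from age. Females 2 and 3 were sequenced on a HiSeq 4000 with 100 nt reads, and female 1 and all other fish on a HiSeq 2000 with 90 nt reads. For male fish 4 the tissue words of the hypothalamus and pituitary labels conflict with the codes in the titles. The codes were used.

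The 3 tissues form the reproductive axis of vertebrates. The hypothalamus releases gonadotropin-releasing hormone, the pituitary answers with gonadotropins, and the gonad, under these hormones, makes germ cells and sex steroids. A young gonad, a testis and an ovary share germ cells and the somatic cells that surround them, and germ cells of both sexes are known to use many genes that are silent in most other tissues. Each library is RNA of a whole tissue piece, so fewer cells of a type and less RNA per cell cannot be told apart. The files used here pair no unigene with a gene name. The members therefore carry assembly identifiers only, and neither their roles nor the defining markers of the 3 tissues could be checked.

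Some libraries stood apart in the values of the gonad unigenes. The relative depth, read from the lowest values of each library, was estimated at 0.79 to 1.41 over the 45 libraries, with FH at 1.13 to 1.41. The estimate is rough. It was highest, at 1.41, in FH replicate 1, for which the study lists fewer clean reads than for FH replicates 2 and 3. In the gonads the relative depth was 0.829 to 1.19 in FG, 0.946 to 1.04 in MG and 0.79 to 1.05 in UG. The number of unigenes at 1 FPKM or more was 26740 to 38548 in FG, 76558 to 83112 in MG and 59271 to 73873 in UG. UG replicate 4, and to a lesser degree UG replicate 6, held lower levels of most gonad unigenes than the other 4 stage I gonads, at a relative depth of 1.04 in UG replicate 4. Outside the gonad, FP replicate 1, FH replicate 3 and MP replicate 2 held the highest values of many members. The limma counts between UG and the other gonads, and the fold changes against UG of the members named there, are also given without UG replicates 4 and 6. The counts of members without overlap between UG and another gonad group are given with all UG libraries only.

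Most gonad unigenes were moderately to highly abundant in gonads, and most were near the lower end of the scale elsewhere. This contrast chose the members and is a description, with no test. The median over the 150 of the group mean was 12.3 FPKM in FG, 21.8 FPKM in MG and 13.2 FPKM in UG, and the 6 hypothalamus and pituitary groups ranged over medians of 0.205 to 0.365 FPKM, the highest in FP. Over the 15 gonads, 113 members averaged 10 FPKM or more, among them 14 at 100 FPKM or more, and 37 averaged less than 10 FPKM. Only 72 were at 1 FPKM or more in every one of the 15 gonads. In hypothalamus and pituitary, 68 members stayed under 1 FPKM in every one of 30 libraries, and 139 stayed under 10 FPKM. A total of 16 were listed at 0 in 15 or more of the 30 libraries, and 56 were listed at 0 in none.

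**Figure D1:**
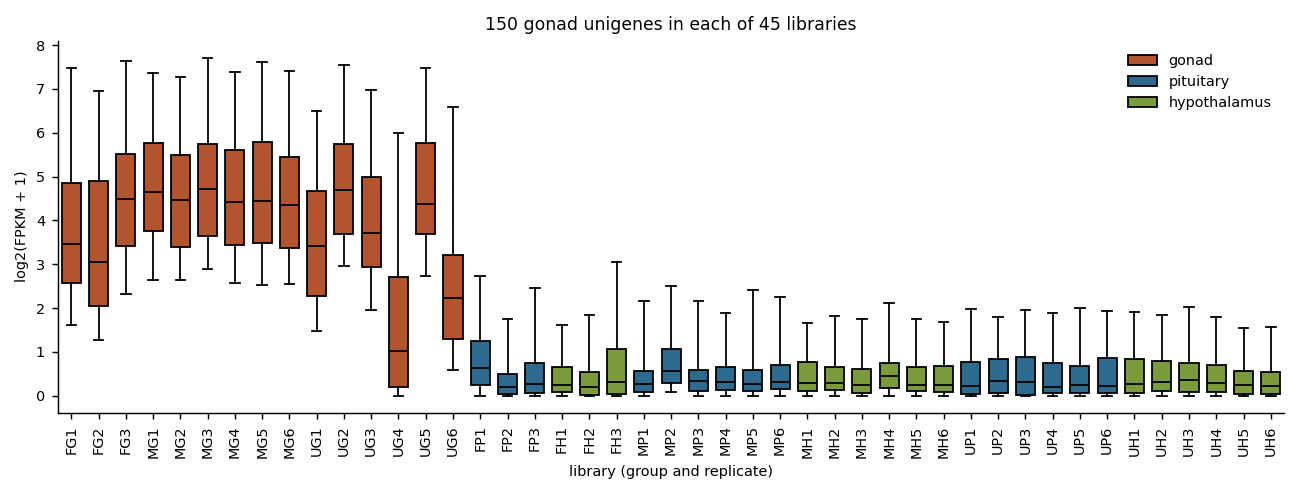
Boxes show the quartiles of log2(FPKM + 1) over the 150 gonad unigenes in each library, the line their median and the whiskers the 5th to 95th percentile, with gonad libraries at the left. The medians were 3.05 to 4.48 in FG, 4.36 to 4.71 in MG and 1.01 to 4.70 in UG, where UG4 and UG6 were lowest, and 0.20 to 0.64 in the 30 other libraries.

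The share of all FPKM that the 150 held was 0.846% to 1.21% in FG, 1.23% to 1.53% in MG and 0.543% to 1.18% in UG. In the hypothalamus and pituitary it was 0.0181% to 0.112%. The highest of those shares, in FH replicate 3, came mostly from Unigene8236_All, without which it was 0.0319%. On the same basis, without that unigene, the highest share of the 29 other hypothalamus and pituitary libraries was 0.0376%.

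All 15 gonads lay above all 30 hypothalamus and pituitary libraries for 57 of the 150, and 0.143% of all unigenes were separated in this way. With UG replicate 4 left out, 117 members were separated (0.317% of all unigenes), and with UG replicates 4 and 6 left out, 137 were (0.651%). These shares stem from the contrast that chose the members, and nothing is read from them.

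**Figure D2:**
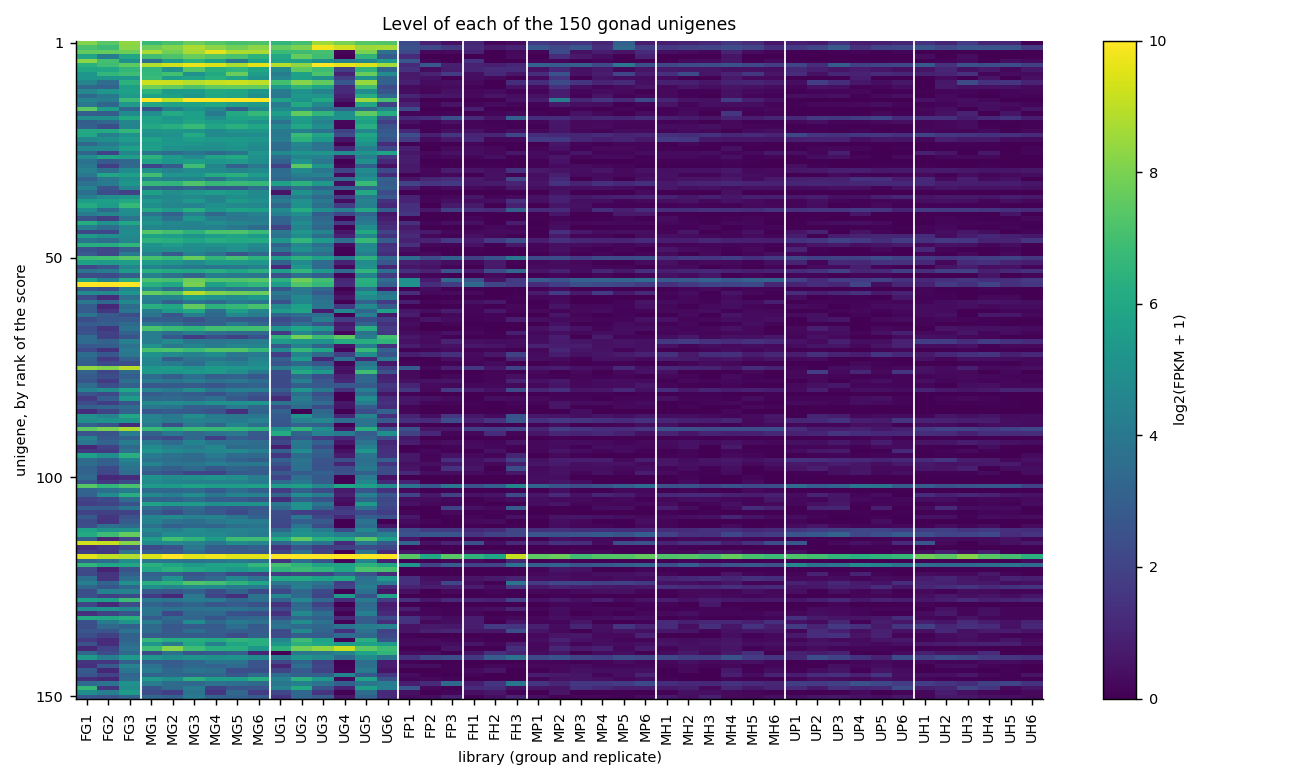
Each line is one of the 150 gonad unigenes in the order of its score and each column a library. The colour gives log2(FPKM + 1), with the lightest colour for 10 or more, and the column UG4 is dark for most members, with 74 of them under 1 FPKM.

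The highest score, 5.63, belonged to CL12116.Contig1_All, a contig of a cluster of similar transcripts. It was at 284, 169 and 324 FPKM in FG, at 106 (lowest), 144 (median) and 209 (highest) in MG, and at 94.0, 158 and 378 in UG, against 0, 1.06 and 7.08 FPKM over the 30 hypothalamus and pituitary libraries. The 3 gonad groups overlapped, and the lowest gonad was above the highest other library. Unigene12520_All had the next score, 5.05, with 138, 115 and 296 FPKM in FG, 211 to 440 FPKM in MG and 192 to 890 FPKM in UG, against 0.660 to 9.46 FPKM elsewhere. Both were present at high level in UG replicate 4, where Unigene12520_All stood at 641 FPKM.

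Unigene47201_All (score 4.53) and Unigene22077_All (4.45) differed from the first pair in the stage I gonads. Unigene47201_All was at 194, 197 and 213 FPKM in FG and at 234, 421 and 778 (lowest, median, highest) in MG. In UG replicates 1 to 6 it was at 112, 114, 131, 0.135, 256 and 11.4 FPKM. Unigene22077_All was at 56.3, 17.5 and 57.4 FPKM in FG and at 87.5, 144 and 205 in MG, and in UG replicates 1 to 6 at 62.1, 196, 122, 0, 88.8 and 6.54 FPKM. Both were at or near 0 in UG replicate 4 and low in UG replicate 6. Among the other 4 stage I gonads, 3 lay below every ovary and every testis for Unigene47201_All, and for Unigene22077_All all 4 were above every ovary, with replicates 2, 3 and 5 within the range of the testes. Unigene22077_All was listed at 0 in 21 of the 30 hypothalamus and pituitary libraries and reached 1.40 FPKM in the highest.

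CL5674.Contig1_All (score 4.16) was at 295, 124 and 31.7 FPKM in FG, 11.5, 48.3 and 86.7 in MG, and 17.9, 35.3 and 53.7 in UG. The 3 groups overlapped, and FG replicate 1 held its highest value. It was listed at 0 in 16 of the 30 other libraries, with a highest value of 5.62 FPKM.

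The 3 most abundant members over the 15 gonads were Unigene8236_All, Unigene36961_All and CL12116.Contig2_All, with means of 1134, 638 and 547 FPKM. Unigene8236_All had the highest FPKM of the members outside the gonad, with 57.4 (lowest), 146 (median) and 562 (highest) FPKM over the 30 hypothalamus and pituitary libraries, the highest in FH replicate 3. It was at 746, 520 and 463 FPKM in FG, at 694, 767 and 1165 in MG, and at 1096, 1544 and 2720 in UG, so that FH replicate 3 exceeded 2 of the 3 ovaries. Without FH replicate 3, the highest value outside the gonad was 281 FPKM. CL12116.Contig2_All, the other contig of the cluster with the highest score, was at 79.8, 121 and 183 FPKM in FG, 434, 662 and 824 in MG, and 323, 590 and 1316 in UG. All 3 ovaries were below every testis and every stage I gonad for this contig, while its sister contig was at or above the middle of the other groups in FG. Reads of contigs of one cluster may be shared between them, so the split of their values is uncertain.

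A further 3 members had nearly equal means in the 3 gonad groups, by a rule that took the smallest range of the group means. Unigene57707_All had a range of 0.24 on the log2 scale, CL5422.Contig1_All one of 0.26 and Unigene58397_All one of 0.30. Unigene58397_All was at 94.2, 61.8 and 61.1 FPKM in FG, 42.1, 57.8 and 96.1 in MG, and 56.1, 74.9 and 129 in UG, and the 3 groups overlapped throughout. It was also among the members with the highest level outside the gonad, at 35.5 FPKM in FP replicate 1, 25.1 FPKM in the next highest library and a median of 8.28 FPKM over the 30. The equal means of the other pair covered a wide spread in UG, where Unigene57707_All ranged over 1.92 to 32.7 FPKM and CL5422.Contig1_All over 1.52 to 26.1 FPKM.

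At the edge of the choice the scores changed little from one unigene to the next. Unigene11366_All and CL14940.Contig1_All, the last 2 inside, had scores of 1.59 and 1.58, and Unigene13765_All and CL6783.Contig4_All, the first 2 outside, both had 1.58. The median score of the 150 was 2.05, and 22 reached 3 or more.

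Of the 150, 81 (54%) were single unigenes, against 47.0% of the table, and 69 were contigs of 54 clusters. In 8 clusters 2 or more contigs were members, 23 in all. CL23375 had 6 of its 6 contigs in the set, CL1913 had 4 of 4 and CL15081 had 3 of 3. Members of 1 cluster share sequence and are not independent observations.

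The 6 contigs of CL23375 had ranks between 21 and 103. CL23375.Contig3_All, the most abundant, was at 64.4, 68.7 and 98.0 FPKM in FG, 26.5, 33.4 and 38.0 in MG, and 2.89, 13.9 and 23.6 in UG, with no overlap between the 3 groups. CL23375.Contig5_All was at 19.1, 29.1 and 34.7 FPKM in FG, 20.6, 25 and 30 in MG, and 2.34, 10.7 and 17.4 in UG, and only UG lay apart from the others. For all 6 contigs, UG replicate 4 or UG replicate 6 was the lowest of the 15 gonads.

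The complete clusters CL15081 and CL1913 were chosen for description after their values were seen. CL15081.Contig3_All was at 22.7, 11 and 84.5 FPKM in FG, at 605, 580, 471, 555, 604 and 533 in MG replicates 1 to 6, and at 124, 286, 190, 5.56, 348 and 7.56 in UG replicates 1 to 6. Every testis was above every other gonad, and UG replicates 4 and 6 were below every ovary. CL1913.Contig2_All was at 24.0, 37.1 and 52.0 FPKM in FG, 38.0 to 86.7 FPKM in MG, and 16.4, 34.0, 21.3, 1.26, 29.2 and 5.01 FPKM in UG replicates 1 to 6. Ovaries overlapped both other groups for this contig, and UG replicates 4 and 6 were again the lowest.

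The rule could be repeated without a fish and read in that fish, whose values then played no part in the choice. For each of the 15 fish in turn, 150 unigenes were chosen from the 42 libraries of the others, and of these at least 125 (in the median fish 141) were among the 150 described here. The gonad of the fish left out was above both its own hypothalamus and its own pituitary for 98.7%, 95.3% and 98.7% of the 150 in females 1 to 3 and for 100% in each of the 6 males. In stage I fish 1 to 6 the share was 98%, 99.3%, 100%, 63.3%, 100% and 96.7%. Over all unigenes at 1 FPKM or more in a library of the fish, the share above both was 19.1% to 51.2%.

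Stage I fish 4 had the lowest share, with 95 of the chosen 150 unigenes (63.3%) above both of its other tissues, against 23.2% of all its unigenes. The median difference between its gonad and the higher of its other tissues was 0.17 on the log2 scale, and it was 1.42 in stage I fish 6 and 2.06 to 4.11 in the remaining 13 fish. A difference above 1 on the log2 scale was seen for 43 of the 150 (28.7%) in stage I fish 4, against 6.51% of all its unigenes. Stage I fish 6 was also apart on this measure, with 98 of the 150 (65.3%), against 8.75% of all its unigenes. In the remaining 13 fish the share was 84% to 100%. No test was made, since members of the set are not replicates.

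**Figure D3:**
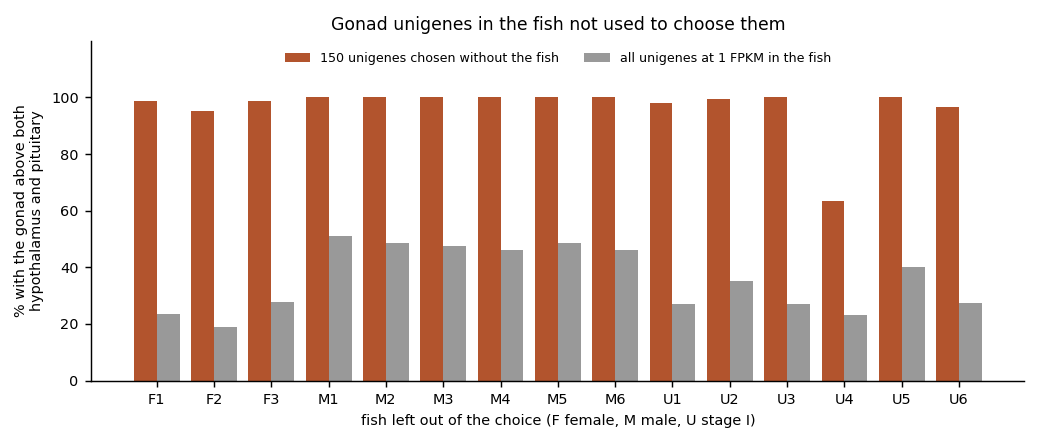
For each fish, the left bar is the percent of the 150 unigenes chosen from the other fish whose gonad value was above both the hypothalamus and the pituitary of that fish, and the right bar the same percent over all unigenes at 1 FPKM or more in the fish. The left bars stand at 95.3% to 100% except for stage I fish 4, at 63.3%.

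The stage I gonads were the most variable group for these unigenes. The median over members of the SD of log2(FPKM + 1) was 0.70 in FG, 0.37 in MG and 1.48 in UG. Over all unigenes at 1 FPKM in at least 3 libraries of the group it was 0.50, 0.32 and 0.55. This scale compresses the spread of unigenes of low level, and the members were chosen for high gonad levels. The medians of members and of all unigenes are therefore not matched for level. The SD was highest in UG for 124 of the 150 and highest in MG for 2. The gonad values entered the rule and this count was not made over all unigenes, so nothing is read from it. Without UG replicates 4 and 6, the members' median SD in UG was 0.76, near the 0.70 of FG. The SD over all unigenes was not computed for that setting.

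UG replicate 4 was lower than each of UG replicates 1, 2, 3 and 5 for 119 of the 150 gonad unigenes (79.3%), and UG replicate 6 for 106 (70.7%). Among the 70636 unigenes that reached 1 FPKM in 3 UG libraries, those shares were 28.9% and 30.3%. Both replicates were lower for 100 members (66.7%, against 13% of all), and in 88 of these replicate 4 was also below replicate 6. The UG group means entered the rule, so these counts are a description, and they were made after the values of the libraries were seen.

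The lower level in UG replicate 4 was not uniform over the set. Relative to the median of the other UG libraries, 113 members were lower by more than 1 on the log2 scale, 54 of them by more than 3, while 33 lay within 1 and 4 were higher by more than 1. Over all unigenes that reached 1 FPKM in 3 UG libraries, 15% were lower by more than 1, 0.265% by more than 3, 77.8% within 1 and 7.25% higher by more than 1. On the log2(FPKM + 1) scale a unigene of low level cannot fall far, and the background admits such unigenes. The members were chosen for high gonad levels, so these shares and the medians below are not matched for level. Nothing is read from their distance. A total of 25 members were under 1 FPKM in UG replicate 4 and at 10 FPKM or more in each of UG replicates 1, 2, 3 and 5. At the other end, 17 members were at 10 FPKM or more in all 6 stage I gonads, among them Unigene12520_All and Unigene58397_All. Both counts lack a share over all unigenes, and nothing is read from them. The median difference of the members was -2.25 in UG replicate 4 and -1.66 in UG replicate 6, and that of all unigenes was -0.19 and -0.15. UG replicates 2 and 5 deviated upwards, by medians of 1.20 and 1.17 over the members, with 0.25 for all unigenes in each. The median they were set against includes the low UG replicates 4 and 6, so the size of these deviations depends in part on those libraries.

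**Figure D4:**
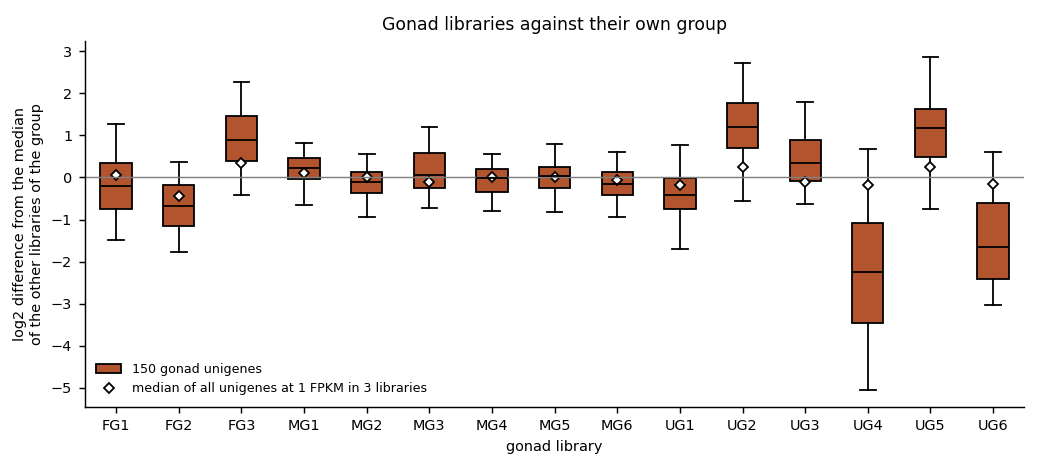
Boxes give, for each gonad library, the log2 difference of the 150 gonad unigenes from the median of the other libraries of the same group, with whiskers at the 5th and 95th percentile, and diamonds the median over all unigenes that reached 1 FPKM in 3 or more libraries of the group. The box medians of UG4 and UG6 were -2.25 and -1.66, while the diamonds of all UG libraries stayed between -0.19 and 0.25. The unigenes of boxes and diamonds were not matched for level.

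The highest values outside the gonad are a description, since the hypothalamus and pituitary group means entered the rule. The libraries named here were picked after the values were seen. Outside the gonad, 3 libraries held the highest value of 95 of the 150 members. FP replicate 1 did so for 39 (26%, against 7.97% of all unigenes), FH replicate 3 for 33 (22%, against 6.06%) and MP replicate 2 for 23 (15.3%, against 1.48%). The values were mostly low, with a median of 1.64 FPKM in FP replicate 1, 3.79 FPKM in FH replicate 3 and 0.709 FPKM in MP replicate 2 over those members. Relative to the gonad of the same fish, the members' median level was 3.93% in FP replicate 1 and 2.14% in MP replicate 2, while in the other MP libraries it was 0.627% to 1.18%. In FH replicate 3 it was 0.692%, the lowest of the 3 FH libraries. The share was highest in the fish with low gonad levels, at 15.3% in UP replicate 4 and 14% in UH replicate 4, then 5.93% in UP replicate 6 and 4.16% in UH replicate 6. Members listed at 0 in the gonad of the fish were left out of these medians, 20 of them in UG replicate 4. FP replicate 1 also differed over all unigenes, with 68917 at 1 FPKM or more, against 51685 and 53145 in FP replicates 2 and 3. It is the only HiSeq 2000 library of FP, so fish and platform cannot be told apart there, and the cause was not tested.

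Unigene36400_All had its highest value outside the gonad in FP replicate 1, at 33.2 FPKM, against 1794 FPKM in the ovary of that fish, and its next highest value was 9.66 FPKM in FH replicate 1. Unigene36961_All reached 17.8 FPKM in MP replicate 2, where the other MP libraries held 0.645 to 3.72 FPKM. Its level in the testis of that fish, 529 FPKM, was the lowest of the 6 testes.

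Between pituitary and hypothalamus, few members were abundant enough to be tested. A unigene was tested if it reached 1 FPKM in a number of libraries equal to the size of the smaller group, which passed 31 members in FP against FH, 26 in MP against MH and 28 in UP against UH. A member could pass through 1 tissue alone. Unigene7898_All, for example, was at 1.28 to 2.37 FPKM in MH and at 0.303 to 0.640 FPKM in MP. The group means of both tissues also entered the rule, so nothing is read from the member counts. In MP, 8 members were higher and 3 lower than in MH by limma (adjusted p under 0.05), where 21.7% and 27.5% of all unigenes tested were called. With the MP and MH libraries of male fish 4 exchanged, as its tissue words would have it, 0 members and 0% of all unigenes were called, so that the exchange says nothing of the members. Over all unigenes, the library coded as pituitary of that fish correlated by a mean of 0.920 with the other MP and 0.709 with the other MH libraries, and the one coded as hypothalamus by 0.745 with MP and 0.932 with MH. In UP, 3 members were higher and 4 lower than in UH, where 28.1% and 18.2% of all were called, and with the fish as a block 5 and 4 (31.5% and 19.8% of all). In FP against FH limma called 0 members, 2 had an unadjusted p under 0.05, and 5.37% and 3.44% of all unigenes were called higher and lower. Libraries of 1 fish deviated together in these comparisons, and among the females fish and platform cannot be fully told apart. With the fish as a block 3 members were higher and 0 lower in FP than in FH, where 11.5% and 7.46% of all unigenes were called. Without the filter, 19 members were higher and 10 lower in MP than in MH (21688 and 26968 of all 121952 unigenes). In UP against UH they were 14 and 14 (26213 and 17665).

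The 3 gonad groups were compared pairwise, which the score did not use directly, although it bounds the lowest of the 3 means. A unigene low in any gonad group could not score high. The distance of member counts and medians from those of all unigenes therefore follows in part from the choice, and nothing is read from it. Fold changes are on the log2(FPKM + 1) scale, which understates the change of low unigenes. All 150 passed the filter in each comparison since the rule chose abundant unigenes. By group mean, MG was the highest of the 3 gonads for 91 members, FG for 42 and UG for 17. The lowest was UG for 92, FG for 47 and MG for 11. These ranks were not counted over all unigenes, and they depended on scaling and on UG replicates 4 and 6. FG was above MG for 45 of the 150, and for 110 with median-of-ratios scaling of the libraries. FG was above UG for 100, and for 64 with neither UG replicate 4 nor 6. MG was above UG for 125, and for 111 with neither of them.

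**Figure D5:**
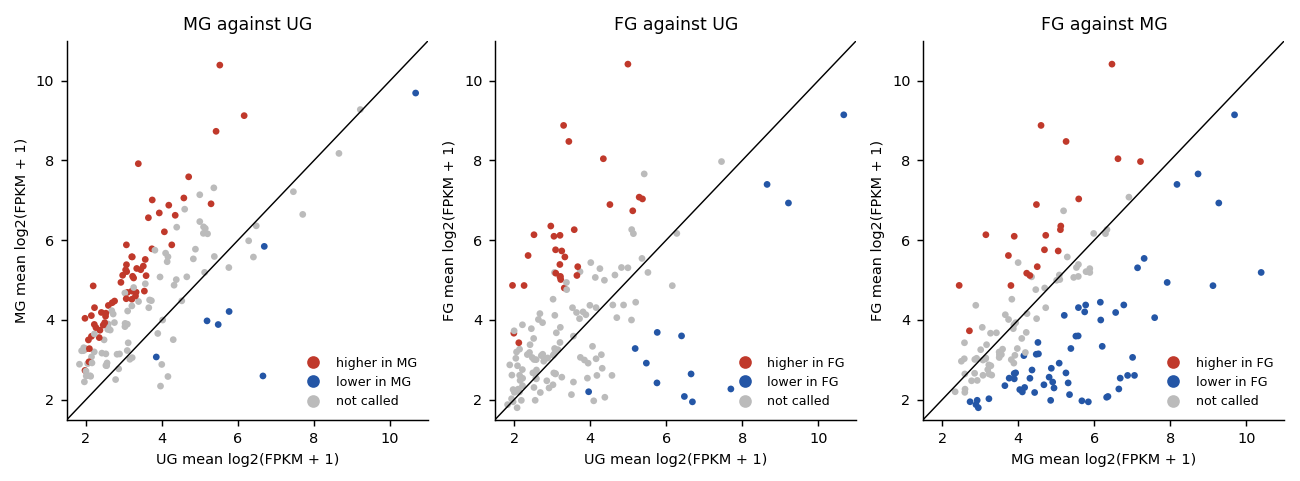
Each point is one of the 150 gonad unigenes, placed by its mean log2(FPKM + 1) in the 2 gonad groups of a panel, with the line of equal means. Colour marks limma calls at an adjusted p under 0.05, with 59 higher and 7 lower in MG than in UG, 29 higher and 13 lower in FG than in UG, and 21 higher and 61 lower in FG than in MG.

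In testis against stage I gonad, 59 members were higher and 7 lower (limma, adjusted p under 0.05), and the background (the share of all tested unigenes called) over 77848 unigenes was 31.1% higher and 6.19% lower. The median log2 difference was 1.22 over the members and 0.39 over all unigenes. The 6 MG libraries lay above all 6 UG libraries for 20 members and below for 2, where 12.8% and 2.41% of all unigenes were separated so. The count of higher members depended on single libraries. It was 43 without UG replicate 4 (23988 of all 80877 unigenes tested) and 34 without UG replicate 6 (21751 of 80824). It was 90 without UG replicate 2 (28045 of 80461) and 36 without MG replicate 1 (19584 of 79100), so the count over all unigenes moved too. With neither UG replicate 4 nor 6, 33 were higher and 7 lower, against a background of 23.7% and 4.85%, with a median of 0.43 over the members and 0.34 over all unigenes. With median-of-ratios scaling of the libraries, the split was 29 higher and 13 lower (background 14.7% and 12.2%), and the median over all unigenes was 0.06.

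Unigene36961_All was at 529, 1510 and 2241 FPKM (lowest, median, highest) in MG and at 0.525, 59.3 and 358 in UG, without overlap, as the choice required. Its log2 fold change was 4.87 (SE 0.92, limma adjusted p = 0.00139), and 4.03 without UG replicates 4 and 6. CL284.Contig2_All was at 153, 220 and 485 FPKM in MG and at 0.20, 13.8 and 39.5 in UG, with a log2 fold change of 4.54 (SE 0.61, adjusted p = 2.04e-04), and 3.87 without UG replicates 4 and 6. Every testis exceeded every stage I gonad for this contig by a wide gap.

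A pair of the 7 lower members were taken by the rule for named unigenes. Unigene58612_All was at 2.33, 4.47 and 17.5 FPKM in MG and at 18, 118 and 237 in UG, a log2 fold change of -4.06 (SE 0.53, adjusted p = 1.78e-04). Only a narrow gap separated MG replicate 1 and UG replicate 5. Unigene7898_All was at 14.2, 17.2 and 25.2 FPKM in MG and at 33.3, 55.4 and 92.0 in UG, a log2 fold change of -1.55 (SE 0.27, adjusted p = 8.82e-04). UG replicates 4 and 6 were among the higher stage I gonads for both, unlike most of the set, and without them the fold changes were -3.77 and -1.27.

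In ovary against stage I gonad, 29 members were higher and 13 lower, and the background over 75168 unigenes was 10.05% higher and 52.96% lower. The median log2 difference was 0.32 over the members and -0.97 over all unigenes. FG lay above all UG libraries for 24 members and below for 11, where 8.41% and 43.4% of all unigenes were separated so. Scaling changed this split. With median-of-ratios scaling 69 were higher and 7 lower (background 23.2% and 37.1%), with medians of 1.45 over the members and -0.48 over all unigenes. With neither UG replicate 4 nor 6 and no scaling, 23 were higher and 32 lower (background 9.70% and 55.7%), and the members' median was -0.27. Without UG replicate 4 alone it was -0.04. Without scaling, the sign of the members' median thus depended on those libraries. With scaling and neither of them, 63 were higher and 12 lower (17131 and 26230 of all 71301 unigenes tested) and the members' median was 0.92. Within the HiSeq 2000 libraries, which hold 1 ovary that is assumed to vary like the stage I gonads, 5 were higher and 7 lower (background 5.34% and 10.1%).

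Unigene63541_All was at 643, 559 and 287 FPKM in FG and at 1.26, 11.6 and 20.8 in UG, with a log2 fold change of 5.57 (SE 0.61, adjusted p = 1.80e-05). Unigene36400_All was at 1794, 1078 and 1308 FPKM in FG and at 1.29, 59.8 and 156 in UG, with a log2 fold change of 5.42 (SE 1.05, adjusted p = 8.47e-04). All ovaries were far above all stage I gonads for both. With neither UG replicate 4 nor 6 the fold changes were 4.93 and 3.99. Within the HiSeq 2000 libraries, with 1 ovary, that of Unigene36400_All was 5.82 (limma adjusted p = 0.101, the highest over its alternatives, of which the lowest was 3.42e-08).

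Unigene43049_All was at 1.11, 3.00 and 12.2 FPKM in FG and at 88.1, 206 and 579 in UG, a log2 fold change of -5.43 (SE 0.63, adjusted p = 2.51e-05). Unigene49248_All was at 4.06, 0.931 and 4.82 FPKM in FG and at 63.0, 104 and 141 in UG, a log2 fold change of -4.75 (SE 0.43, adjusted p = 3.94e-06). It was listed at 0 in 26 of the 30 hypothalamus and pituitary libraries, and its level in ovaries, though low, was above the highest of them, 0.470 FPKM. UG replicate 4 held the highest stage I value of Unigene43049_All and the lowest of Unigene49248_All. Without UG replicates 4 and 6 the fold changes were -5.27 and -4.82.

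In ovary against testis, 21 members were higher and 61 lower, and the background over 85760 unigenes was 8.62% higher and 73.2% lower. The median log2 difference was -0.46 over the members and -1.24 over all unigenes. FG lay above all MG libraries for 17 members and below for 46, where 6.90% and 64.7% of all unigenes were separated so. The direction of the majority turned with scaling. With median-of-ratios scaling 81 were higher and 26 lower (background 25.7% and 48.8%), with medians of 1.02 over the members and -0.60 over all unigenes. The size factors were 0.294 to 0.594 in FG and 1.35 to 1.5 in MG. Within the HiSeq 2000 libraries, where the spread comes from the testes alone since 1 ovary remains, 24 were higher and 64 lower (background 8.97% and 53.2%).

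The unigenes with the largest differences kept their direction under both scalings. Median-of-ratios scaling raised the FG values and lowered the MG values, so a unigene higher in FG could not turn. The unigenes lower in FG were chosen for their large differences. Nothing is read from the kept direction. Unigene63541_All, at 643, 559 and 287 FPKM in FG, was at 14.5, 24.8 and 30.8 in MG (log2 fold change 4.28, SE 0.31, adjusted p = 4.04e-07). Unigene36400_All, at 1794, 1078 and 1308 FPKM in FG, was at 50.5, 78.0 and 243 in MG (3.95, SE 0.41, adjusted p = 3.91e-06). Both were chosen among members without overlap between the groups.

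Unigene36961_All was at 21.8, 17.4 and 115 FPKM in FG and at 529 or more in MG, with a log2 fold change of -5.20 (SE 0.55, adjusted p = 4.52e-06). CL22265.Contig2_All was at 3.67, 1.74 and 16.7 FPKM in FG and at 99.4, 139 and 157 in MG, with a log2 fold change of -4.45 (SE 0.46, adjusted p = 3.41e-06). FG replicate 3 was the highest ovary for both, and still below every testis. In UG, CL22265.Contig2_All was at 0.120 FPKM in replicate 4 and 7.92 FPKM in replicate 6, and at 26.8 to 110 FPKM in the other 4.

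Among the smaller differences between ovary and testis, the following shrank with scaling, which raised FG against MG. Unigene22077_All was lower in FG than in MG by a log2 fold change of -1.83 (SE 0.38, adjusted p = 7.14e-04), and with median-of-ratios scaling the value was -0.22 (adjusted p = 0.509, the highest over its alternatives, of which the lowest was 5.34e-04). CL12116.Contig2_All was lower in FG, with a log2 fold change of -2.34 (SE 0.30, adjusted p = 1.74e-05) and of -0.71 with scaling (adjusted p = 0.0706, the highest over its alternatives, of which the lowest was 6.50e-07). The HiSeq 4000 libraries hold no testis and no stage I gonad, so no comparison could be made within them. The FG, MG and UG comparisons share libraries, so their calls are not independent of each other.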

How the data were processed

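RNA of the hypothalamus, pituitary and gonad of 15 fish was sequenced as paired-end stranded mRNA libraries. The authors filtered reads with SOAPnuke 1.5.6, assembled all 45 libraries with Trinity, clustered the transcripts with TGICL, mapped reads with SOAP2 and estimated expression with RSEM. Values are deposited as FPKM for 121952 unigenes, without read counts. The table gives no absolute depth, and the read totals that the study lists were not used to estimate it. Relative depth was read from values under 0.15 FPKM. No scaling between libraries is stated in the sources used here. No RefSeq identifier matched a unigene (0 matches among 78555 genes), so gene names, marker lists and sequences were not used here.

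A linear model on log2(FPKM + 1) was fitted with limma 3.58.1 (R 4.3.3, eBayes with trend) to the 2 groups of a comparison at a time, for 6 comparisons. Unigenes that reached 1 FPKM in a number of libraries equal to the size of the smaller group were tested, with Benjamini-Hochberg adjustment over all of them and a threshold of 0.05. Replicates are separate fish. The libraries of 1 fish share a number, so pituitary and hypothalamus are paired by fish. Deviations from the group means correlated by 0.445 to 0.623 for the same fish in FP and FH, 0.228 to 0.384 in MP and MH, and 0.115 to 0.449 in UP and UH. The females were sequenced on different HiSeq models, so fish and platform cannot be fully told apart in FP and FH. Across gonad groups the numbers name different fish. The fit was checked on simulated libraries with known changes.

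The members and lists were chosen with earlier results of these data known. Named unigenes were the 5 highest scores, the 3 highest gonad means, the 3 smallest ranges of gonad means, the 2 highest and 2 lowest significant fold changes without overlap in each gonad comparison, the 3 highest values outside the gonad, the 2 ranks on either side of the edge of the choice, and the cluster with most members. Alternatives were median-of-ratios scaling over 53148 unigenes, a pseudocount of 0.1, testing without a filter, the replicate number as a block, 1 fit over all 9 groups, a log2 fold change of 1 or more, the NOISeq rule written anew (probability of 0.8, zeros set to 0.5), HiSeq 2000 libraries, male fish 4 exchanged, group medians and leaving out each library. Leaving out UG replicates 4 and 6 was added after seeing the data. Python 3.11.15, NumPy 2.4.6, pandas 2.3.3, Numba 0.67.0 and Matplotlib 3.10.9 were used.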

Additional observations from a re-analysis of the deposited data

Results flagged for a closer look

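Among 67 groups of 6 libraries checked for a library far from the others, 12 held one. The limit used passes about 1 in 20 groups of independent normal values. Most groups here held FPKM without a log, and the groups shared libraries, so that rate may not hold and no excess is read from the count. The causes were not tested.

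In the summaries over the 150 gonad unigenes, MH replicate 4 had a median log2(FPKM + 1) of 0.438, against 0.232 to 0.286 in the other MH libraries. MP replicate 2 had a median of 0.554, against 0.258 to 0.330 in the other MP libraries, and held 40 members at 1 FPKM or more, against 23 to 26. UG replicate 4 held 76 members at 1 FPKM or more, against 131 to 150 in the other UG libraries.

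In single members the distant library was the highest of its group each time. These values were compared without a log, a scale on which high values stand apart more easily than low ones, so nothing is read from that direction. Unigene36961_All was at 358 FPKM in UG replicate 5, against 0.525 to 132 in the other UG libraries. Unigene57707_All was at 32.7 FPKM in UG replicate 2, against 1.92 to 11.5. In the testis, Unigene47201_All was at 778 FPKM in MG replicate 4, against 234 to 435 in the other MG libraries, and CL284.Contig2_All was at 485 FPKM in MG replicate 3, against 153 to 274. Unigene36400_All was at 243 FPKM in MG replicate 3, against 50.5 to 97.5, and Unigene43049_All was at 287 FPKM in MG replicate 2, against 39.6 to 118. Unigene58612_All was at 17.5 FPKM in MG replicate 1, against 2.33 to 5.74, and Unigene7898_All was at 25.2 FPKM in MG replicate 2, against 14.2 to 18.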

How the results depend on the processing

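Brackets give the unigenes called in the same direction among all tested. In MG against UG, 59 members were higher and 7 lower. The higher count was 36 with no filter (32219 of 121952) and 29 with median-of-ratios scaling (10523 of 71616). It was 98 in 1 fit over all 9 groups (30807 of 77848) and 33 with neither UG replicate 4 nor 6 (19869 of 83828). It was 22 when that was joined with scaling (9491 of 76666), and 22 by the NOISeq rule (3380 of 121952). The lower count was 13 with scaling (8729 of 71616) and 4 at a log2 fold change of 1 or more (2660 of 77848). It was 12 in the fit over 9 groups (6275 of 77848) and 13 with neither UG replicate 4 nor 6 and scaling (7151 of 76666). In FG against UG, 29 members were higher and 13 lower. The higher count was 18 with no filter (8573 of 121952), 69 with scaling (17958 of 77334) and 52 over 9 groups (10327 of 75168). It was 63 with neither UG replicate 4 nor 6 and scaling (17131 of 71301), and 17 by NOISeq (3530 of 121952). The lower count was 7 with scaling (28717 of 77334) and 24 over 9 groups (46532 of 75168). It was 32 with neither UG replicate 4 nor 6 (38519 of 69209) and 20 by NOISeq (17204 of 121952). In FG against MG, 81 were higher and 26 lower with scaling (20725 and 39421 of 80786). With no filter 28 members were called in UP against UH (26213 higher and 17665 lower of 121952) and 29 in MP against MH (21688 and 26968). With male fish 4 exchanged, 0 members were called in MP against MH (0 of 80450).

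Leaving out each library in turn gave 34 to 90 higher and 7 to 9 lower in MG against UG, 20 to 35 and 11 to 18 in FG against UG, and 19 to 25 and 54 to 75 in FG against MG. Over all unigenes, 19584 to 28045 were higher and 4033 to 5320 lower in MG against UG (79100 to 80974 tested). The ranges were 5713 to 7661 and 27811 to 39669 in FG against UG (70257 to 82608 tested), and 6530 to 8222 and 59448 to 64824 in FG against MG (82999 to 90264 tested). Leaving out a library gave 6 to 8 members called in UP against UH, 8 to 13 in MP against MH and 0 in FP against FH. Over all unigenes, 20418 to 24929 were higher and 13901 to 15124 lower in UP against UH (82308 to 83218 tested). The ranges were 16239 to 17787 and 20956 to 22769 in MP against MH (82333 to 82880 tested), and 662 to 2822 and 293 to 1580 in FP against FH (60823 to 67654 tested). Of the 150 members, 128 to 150 were kept, the fewest without UG replicate 4.

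With the replicate block, 3 members were called in FP against FH, in UP against UH 5 were higher in place of 3, and the block moved no other count of the tissue pairs by over 1.5 times. Between gonad groups the number is shared by different fish, and the same-number correlations were -0.101 to 0.0747. The block gave 19 members higher and 33 lower in FG against UG (6314 and 36984 of all 75168 unigenes tested).

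In FG against MG, Unigene12520_All, Unigene47201_All and Unigene8236_All were at log2 fold changes of -0.78, -1.07 and -0.55 (limma adjusted p = 0.0381, 0.00573 and 0.0398). With scaling they turned to 0.86, 0.57 and 1.10. In FG against UG, Unigene12520_All was at -1.26 (limma adjusted p = 0.0299). It turned to 0.19 with scaling when UG replicates 4 and 6 were also left out. These were called differences that changed sign. The 24 fold changes of named unigenes otherwise kept their direction, and 12 of them lost their call under 1 or more alternatives. The number of the 150 also chosen was 105 with a pseudocount of 0.1, 112 with scaling, 121 with group medians, 113 in HiSeq 2000 libraries and 146 with male fish 4 exchanged. The causes were not tested. With 3 ovaries and no read counts, small differences and low values have little precision.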
